A study of Danio rerio with 6 samples.

Results

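Expression of 6 transcription factor genes was examined in sorted pax8:DsRed-positive zebrafish cells: gata1a, tal1 and spi1b, which act in the formation of blood, and myod1, myf5 and myog, which act in the formation of skeletal muscle. They were chosen by name, as genes of the mesoderm that lies beside the nephric anlagen, out of 32266 Ensembl genes in the count table, and all 6 were measured in all 6 samples. The samples were 3 of wild-type embryos (controls I, II and III) and 3 of embryos that had received an atoh1b morpholino (atoh1b-MO II, IV and V), an antisense oligomer that blocks the making of the Atoh1b protein. According to the study, every embryo was heterozygous for the pax8:DsRed transgene, the morpholino was given just after fertilisation, and live single DsRed-positive cells were sorted at late stages of the otic-epibranchial progenitor domain (OEPD), early in segmentation. DsRed marks the OEPD, from which the inner ear arises, and the nephric anlagen, from which the kidney arises, so each sample pooled both tissues, and no injection of the controls is named. The titles of the injected samples name atoh1b, while their genotype label names a knockdown of dlx3b/4b. The titles were followed. The level of atoh1b could not be used to check the labels, since the study places it on an unmapped chromosome and all 565 genes on unplaced scaffolds had 0 counts.

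The total count per sample ran from 24120228 to 37169850. Levels are given as CPM (counts scaled to a fixed library total, with the TMM scaling of edgeR) and, where genes are compared with each other, as CPM per kilobase of the gene's length. The study dismissed 1 control before its test without naming it by number. Over all genes, control III stood apart from controls I and II, with chi-square statistics per degree of freedom of 122.6 and 108.2. Between controls I and II the statistic was 23.8. Each comparison is therefore given without control III and with it. Control III was also the highest or the lowest sample for all 6 genes. In a bulk sample, fewer cells of a type and less RNA per cell cannot be told apart.

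Blood and muscle regulators are both at work in the trunk mesoderm at these stages. Tal1, a basic helix-loop-helix factor, is needed for the common precursors of blood and vessels, Gata1a drives the erythroid fate and Spi1b, the Ets factor also called PU.1, drives the myeloid fate. Myod1 and Myf5 are basic helix-loop-helix factors that commit somite cells to muscle, and Myog acts after them in the differentiation of muscle cells. In the zebrafish embryo some, but not all, of the early blood precursors form in the lateral and intermediate mesoderm next to the pax8-expressing nephric anlagen. Muscle forms in the somites medial to these anlagen.

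The positions below are those of the deposited table, for which the labels name the build GRCz10 and the study's methods GRCz11. The gene gata1a (ENSDARG00000013477) lay on chromosome 11 at 25174298 to 25181240, on the minus strand, tal1 (ENSDARG00000019930) on chromosome 22 at 16509305 to 16519060, on the plus strand, and spi1b (ENSDARG00000000767) on chromosome 7 at 32373523 to 32388203, on the minus strand. The gene myod1 (ENSDARG00000030110) lay on chromosome 25 at 30843777 to 30846017, on the minus strand, myf5 (ENSDARG00000007277) on chromosome 4 at 22020253 to 22024132, on the plus strand, and myog (ENSDARG00000009438) on chromosome 11 at 22436006 to 22439016, on the minus strand. No other gene of the table overlapped gata1a, tal1 or myod1. Exons of spi1b shared 528 bases, 21.3% of its length, with the opposite-strand gene si:ch73-314g15.3, which held 169 to 237 counts per sample. Exons of myog shared 763 bases, 53.9% of its length, with the opposite-strand gene si:ch211-86h15.3, which had 0 counts in every sample. The gene myf5 shared no exon base with another gene. The strand setting of the read counting is not given in the sources used here. Reads of spi1b or myog and of their antisense partners therefore cannot be told apart over the shared bases. How such reads were assigned is not known, which limits the levels of both genes, also per kilobase.

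The blood regulators tal1 and gata1a were abundant in 5 of the 6 samples, at percentile 96.6 to 98.8 per kilobase among the genes tested. The level of tal1 was 865, 667 and 29.6 CPM in controls I, II and III and 350.2, 500.2 and 566 CPM in atoh1b-MO II, IV and V. All 3 atoh1b-MO samples were below controls I and II, as for 14.7% of the genes tested without control III. Control III was 11.8-fold below the lowest of the other samples. The level of gata1a was 338, 297 and 8.81 CPM in the controls and 231, 323 and 423 CPM in the atoh1b-MO samples. Here the atoh1b-MO samples lay on both sides of controls I and II, and control III was at least 26.2-fold below every other sample. The myeloid regulator spi1b was much less abundant, at 12.1, 13.6 and 6.23 CPM in the controls and 18.1, 24.7 and 40.8 CPM in the atoh1b-MO samples. It was the only member for which all 3 atoh1b-MO samples lay on the same side of all 3 controls. This held for 13.2% of all genes tested, and for 7.36% in that direction. The 246 counts of gata1a, 826 of tal1 and 174 of spi1b in control III were far above the 3 counts taken as the floor of detection, so the low levels there were measured and not missing.

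The muscle regulators were lower in the same 5 samples than in control III. The level of myod1 was 1.84, 2.51 and 21.7 CPM in controls I, II and III and 4.37, 4.02 and 3.72 CPM in atoh1b-MO II, IV and V. The atoh1b-MO samples were all above controls I and II, as for 15.1% of the genes tested without control III. Control III was at least 4.96-fold above every other sample. The level of myf5 was 8.75, 7.75 and 23.5 CPM in the controls and 8.86, 12.7 and 6.74 CPM in the atoh1b-MO samples. Without control III the groups overlapped, and control III was 1.85-fold above the next sample. The differentiation gene myog was at 0.288, 0.321 and 18.4 CPM in the controls and at 1.68, 0.854 and 0.896 CPM in the atoh1b-MO samples. It rested on 8 and 12 counts in controls I and II, 21 to 43 in the atoh1b-MO samples and 514 in control III, so its low values are the least precise of the 6 genes.

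**Figure D1:**
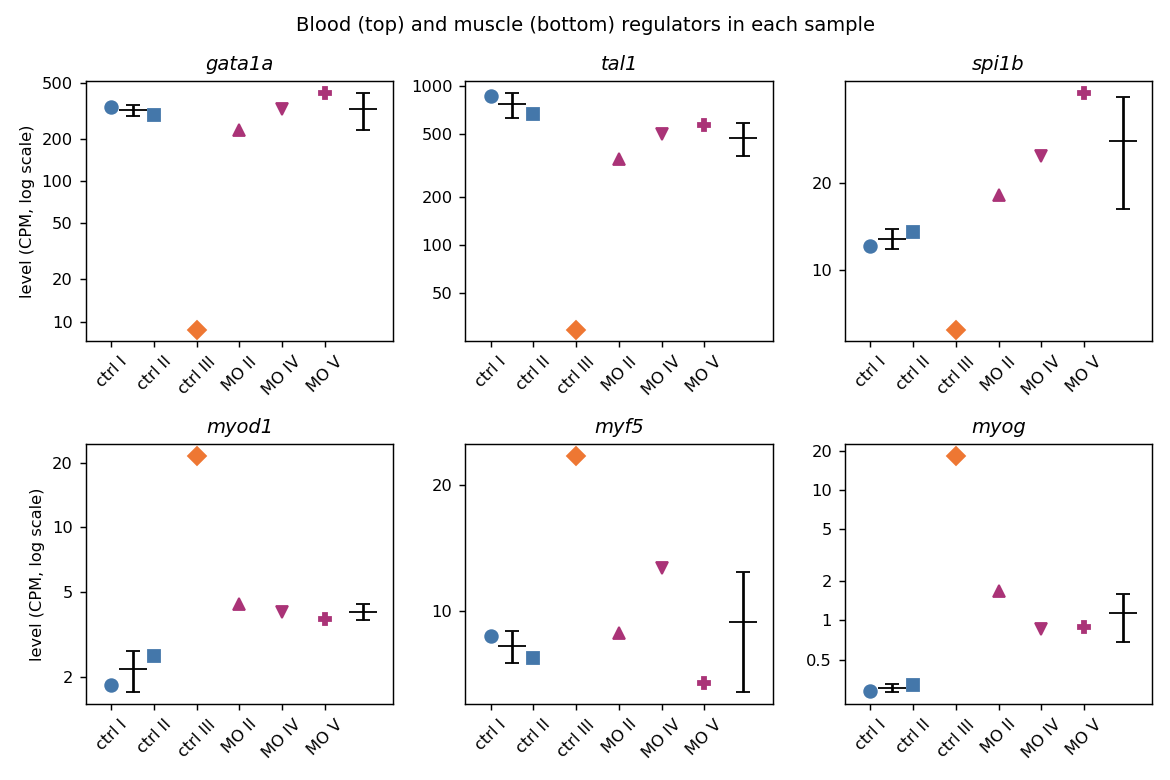
The level of each of the 6 genes in each sample, in CPM on a log scale that differs between panels (blue, controls I and II; orange, control III; purple, atoh1b-MO II, IV and V). Black bars give the mean and SD of controls I and II (n = 2) and of the atoh1b-MO samples (n = 3). Control III is the lowest sample for gata1a, tal1 and spi1b and the highest for myod1, myf5 and myog.

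Per kilobase, the 5 samples other than control III had the same leading pair. In controls I and II, tal1 averaged 289.7 ± 53.0 CPM per kilobase (SD, n = 2) and gata1a 151.4 ± 13.7. These were followed by myf5 at 5.83 ± 0.497, spi1b at 5.18 ± 0.417, myod1 at 1.23 ± 0.270 and myog at 0.215 ± 0.0164 CPM per kilobase. The order of myf5 and spi1b rested on control I, at 6.18 and 4.89 CPM per kilobase, while both were at 5.48 in control II. In the atoh1b-MO samples the order was tal1 at 178.6 ± 41.8 (SD, n = 3), gata1a at 155.4 ± 45.9, spi1b at 11.25 ± 4.71, myf5 at 6.66 ± 2.13, myod1 at 2.28 ± 0.185 and myog at 0.808 ± 0.328 CPM per kilobase. Neither tal1 and gata1a nor spi1b and myf5 were apart there by more than the larger of their SDs, although tal1 was the higher of its pair in each sample and spi1b the higher of its own.

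In control III the order was reversed as to the tissues, with myf5 at 16.6, myog at 13.0 and myod1 at 12.2 CPM per kilobase above tal1 at 11.2, gata1a at 4.202 and spi1b at 2.52. Ranked among the 17874 genes tested with all samples, the level of tal1 per kilobase stood at percentile 97.2 to 98.8 in the other 5 samples and 69.7 in control III, and that of gata1a at 96.6 to 98.3 and 49.3. The level of myog stood at percentile 8.36 to 27.5 in the other 5 samples and at 72.7 in control III. The other members were less far apart. Percentiles were 28.9 to 39.4 and 71.5 for myod1, and 51.9 to 64.7 and 77.2 for myf5, in the same order of samples. For spi1b they were 53.6 to 76.3 and 39.8. The blood genes together took 0.118% and 0.0983% of all counts in controls I and II, 0.0611% to 0.106% in the atoh1b-MO samples and 0.00427% in control III (Wilson 95% interval 0.00404% to 0.00451%). The muscle genes together took 0.00105% to 0.00179% in those 5 samples and 0.00609% in control III (0.00581% to 0.00638%). The summed blood level per kilobase was 66.4-fold and 56.1-fold the summed muscle level in controls I and II, 25.2-fold, 29.8-fold and 57.7-fold in atoh1b-MO II, IV and V, and 0.428-fold in control III.

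Control III was the lowest of the 6 samples for all 3 blood regulators and the highest for all 3 muscle regulators. Among all genes tested, it was the lowest sample for 28.7% and the highest for 27.8%. Relative to the mean of controls I and II, gata1a was 36.0-fold, tal1 25.9-fold and spi1b 2.06-fold lower in control III, and myog was 60.5-fold, myod1 9.98-fold and myf5 2.85-fold higher. The genes gata1a and tal1 were at least 10-fold below both other controls, which held for 1.5% of the genes tested, and myog was at least 10-fold above both, which held for 0.834%. With 1 sample of this kind, there is no replicate check of these differences.

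Marker lists of the neighbouring tissues were read in the same way, as log2 ratios to the mean of controls I and II with 0.1 CPM added. Only genes whose symbols could be matched to the counts were read, which left out part of each list. Of 17 primitive blood genes tested, including gata1a and tal1, 15 were at least 2-fold below both other controls in control III and 0 were above. These shares stand beside 8.28% of all genes below and 9.58% above. The median log2 ratio of the list in control III was -3.07, against -0.01 for all genes. The most abundant blood gene per kilobase in controls I and II was lmo2, a partner of Tal1 in blood and vessel precursors, at 1674, 1273 and 50.8 CPM in the controls and 609, 969 and 1051 CPM in the atoh1b-MO samples. The embryonic globin gene hbae3 was lower as well, at 61.0, 61.2 and 6.05 CPM in the controls against 60.5, 85.3 and 121.5 CPM in the atoh1b-MO samples.

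Endothelial markers followed the blood genes. All 7 tested were at least 2-fold below both other controls in control III, with a median log2 ratio of -2.76, and kdrl, a receptor of vascular endothelial growth factor, was at 55.9, 56.7 and 10.8 CPM in the controls and 40.2, 64.4 and 81.2 CPM in the atoh1b-MO samples. The myeloid list was thinner. Of 7 genes tested, including spi1b, 1 was at least 2-fold below and 1 above. The myeloid regulator cebpa, which marks other mesoderm too, took most of its summed level in all samples but control III, at 235, 204 and 9.74 CPM in the controls and 135, 179 and 231 CPM in the atoh1b-MO samples, and spi1a and cxcr3.2 had 3 counts or fewer in every sample.

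Muscle markers moved the other way in control III. Of 13 tested, including the 3 members, 11 were at least 2-fold above both other controls and 0 below, with a median log2 ratio of 3.09. The most abundant per kilobase in controls I and II was the myosin light chain gene myl10, at 8.64, 16.5 and 61.5 CPM in the controls and 14.8, 11.7 and 13.1 CPM in the atoh1b-MO samples. The slow myosin gene smyhc1, less abundant in controls I and II, was at 4.21, 7.59 and 95.02 CPM in the controls and at 18.1, 1.71 and 5.94 CPM in the atoh1b-MO samples. The actin gene actc1b was at 1.12, 1.98 and 39.9 CPM in the controls. In the atoh1b-MO samples it was at 8.04, 1.22 and 2.02 CPM. For smyhc1 and actc1b, atoh1b-MO II was thus the highest of the other 5 samples. The same held for the members myod1 and myog, but not for myl10 or myf5. Of 14 presomitic and paraxial mesoderm genes, 3 were at least 2-fold above and 2 below in control III, with a median log2 ratio of 0.18, and the most abundant, the Notch ligand gene dlc, was at 152, 144 and 69.0 CPM in the controls and 87.4, 163 and 165 CPM in the atoh1b-MO samples. Neural markers were higher with muscle in control III and in atoh1b-MO II, and all 4 tested were at least 2-fold above both other controls in control III. Their summed level was 83.2, 111 and 814 CPM in the controls and 362, 63.5 and 89.0 CPM in the atoh1b-MO samples, most of it from sox19a in control III and atoh1b-MO II (502 and 225 CPM). The part that other cells in the sort had in these levels was not tested.

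**Figure D2:**
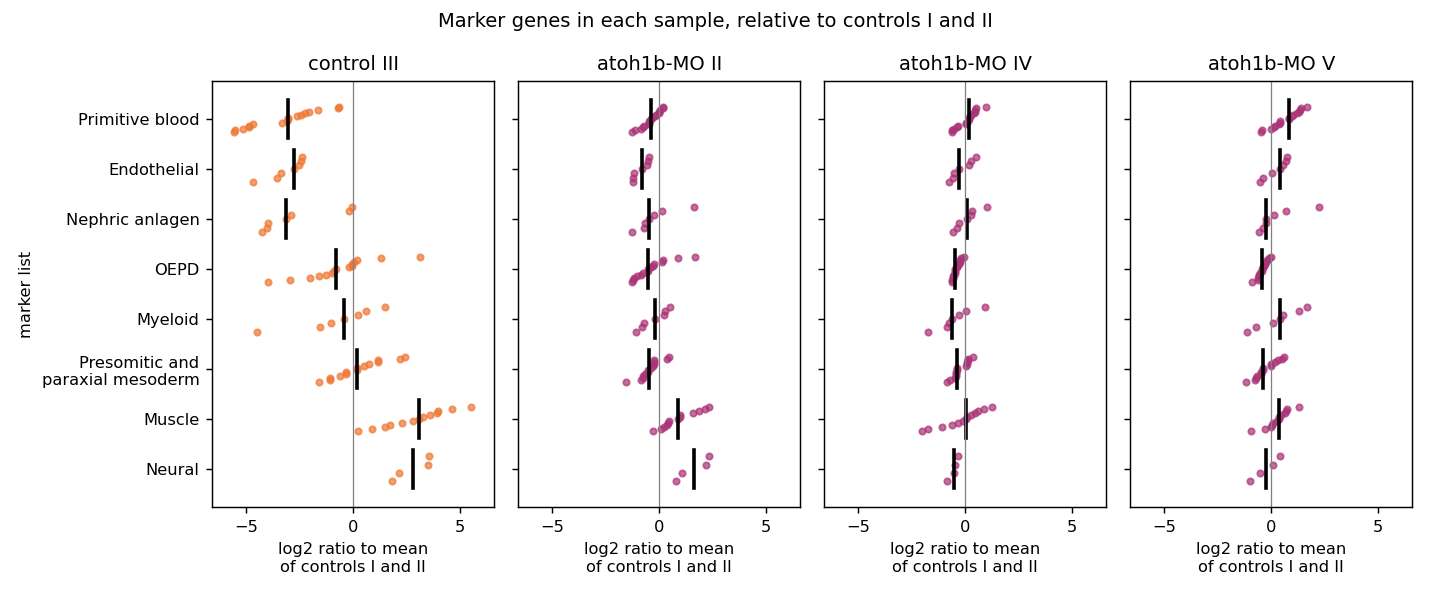
The log2 ratio of each marker gene to the mean of controls I and II, in control III and in the atoh1b-MO samples, by list (points, genes; black bars, medians of the lists). In control III the primitive blood, endothelial and nephric genes lie mostly below 0 and the muscle and neural genes above it, with medians of -3.07, -2.76, -3.12, 3.09 and 2.82.

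The reporter's own gene gave a scale for these shifts. The level of pax8, which marks both sorted tissues, was 295, 226 and 16.5 CPM in controls I, II and III and 109, 201 and 173 CPM in atoh1b-MO II, IV and V. Of 7 nephric genes tested, 5 were at least 2-fold below both other controls in control III and 0 above, while of 15 OEPD genes 5 were below and 1 above. The summed level of the OEPD list was 1482, 1692 and 1316 CPM in the controls and 1187 to 1269 CPM in the atoh1b-MO samples, with a median log2 ratio of -0.80 in control III. In that sum sox3 was at 29.4, 48.5 and 336 CPM and tfap2c at 43.7, 104 and 182 CPM in controls I, II and III, both being genes of other ectoderm too. Other OEPD genes moved little, beside the 5 that were below. In controls I, II and III tfap2a was at 151, 184 and 163 CPM and etv5b at 237, 215 and 214 CPM. The level of foxi1 in control III was 1.018-fold the mean of controls I and II. The part of other cells in the OEPD sum was not tested. The summed level of the nephric list was 816, 705 and 131 CPM in the controls and 499 to 713 CPM in the atoh1b-MO samples. The genes pax8 and gata3 stand in both lists.

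Set against pax8 per kilobase, tal1 varied far less than either gene alone. The ratio of tal1 to pax8 was 2.64, 2.65 and 1.61 in the controls and 2.89, 2.24 and 2.95 in the atoh1b-MO samples, a 1.83-fold range, while tal1 itself had a 29.2-fold range. The ratio of gata1a to pax8 was 1.30, 1.49 and 0.606 in the controls and 2.40, 1.82 and 2.78 in the atoh1b-MO samples. The ratio of myog to pax8 had a 1141-fold range. Without control III the range was 15.7-fold for myog to pax8 and 1.32-fold for tal1 to pax8. A ratio between genes of the same sample was picked out after the values were seen. The ratio of gata1a to tal1 per kilobase was 0.492, 0.562 and 0.376 in the controls and 0.831, 0.814 and 0.943 in the atoh1b-MO samples, without overlap. Of the 15 ratios between members, 2 did not overlap between the groups, the other being spi1b to myf5. That share is near the 13.2% of single genes that did not overlap in the same way. The ratio of gata1a to pax8, which is not among the 15, also did not overlap between the groups. None of these ratios was tested, and nothing is read from them.

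**Figure D3:**
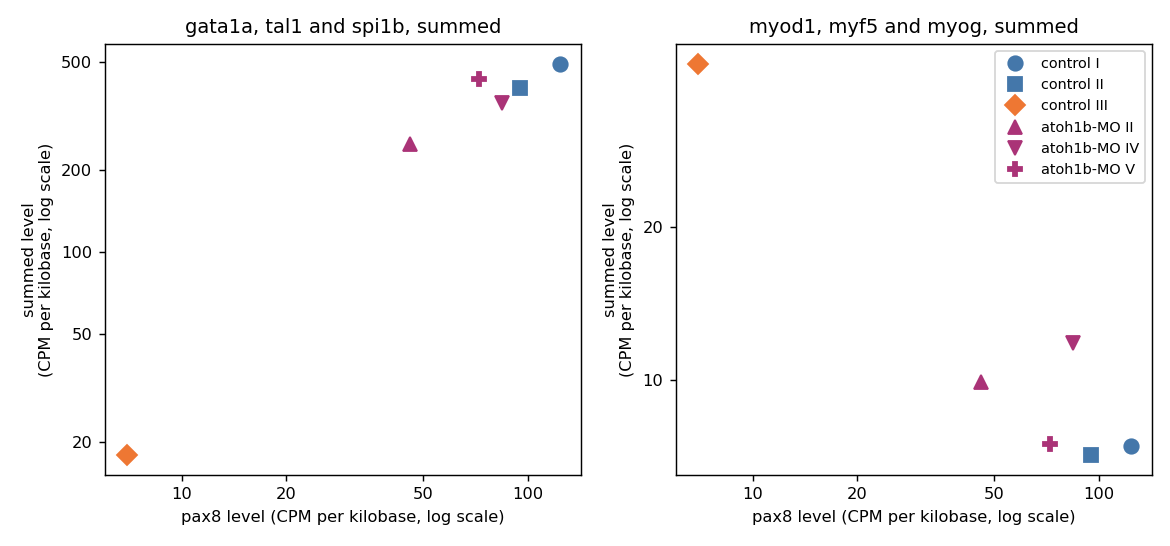
The summed level of the 3 blood regulators (left) and of the 3 muscle regulators (right) against the level of pax8 in the 6 samples, in CPM per kilobase on log axes. The blood sum runs from 17.9 in control III, where pax8 was 6.94, to 493 in control I, where pax8 was 123.9, and the muscle sum is highest, at 41.9, in control III.

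The depletion of Atoh1b was tested with the quasi-likelihood test of edgeR, on log2 fold changes of atoh1b-MO over control and with p-values adjusted over all genes tested. Without control III, 0 of the 6 genes were called at an adjusted p-value below 0.1, where 0.598% of 18397 genes were (0.451% as higher and 0.147% as lower in the atoh1b-MO samples). The gene tal1 had a log2 fold change of -0.69 (SE 0.19, adjusted p = 0.244), from 766 ± 140.1 CPM (SD, n = 2) in controls I and II to 472 ± 110.5 CPM (SD, n = 3). The gene spi1b had one of 1.12 (SE 0.32, adjusted p = 0.251), from 12.8 ± 1.03 to 27.8 ± 11.7 CPM by the same edgeR fit. For gata1a the log2 fold change was 0.04 with a 95% interval of -0.46 to 0.54 (edgeR, adjusted p = 0.962), so a change of either sign within that interval is left possible.

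Among the muscle genes, myog had a log2 fold change of 1.89 (SE 0.64) and myod1 of 0.89 (SE 0.30), both with an adjusted p of 0.334 by edgeR. In this fit myog passed the filter on low counts only through the atoh1b-MO samples, where it was higher. Its difference is therefore given as a description only. The mean level of myod1 was 2.17 ± 0.479 CPM (SD, n = 2) in controls I and II and 4.04 ± 0.327 CPM (SD, n = 3) in the atoh1b-MO samples, and that of myog 0.304 ± 0.0232 and 1.14 ± 0.465 CPM. For myf5 the log2 fold change was 0.20 with a 95% interval of -0.46 to 0.85 (edgeR, adjusted p = 0.842). Before adjustment, 4 of the 6 genes had a p-value below 0.05 in edgeR, as did 11.2% of all genes, and the same 4 did not overlap between the groups, which held for 29.8% of all genes. Those were tal1, which was lower in the atoh1b-MO samples, and spi1b, myod1 and myog, which were higher. Both counts include myog, which passed the filter only through the group where it was higher, so its part in them is no support.

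The calls changed with the processing. DESeq2, which was run without the filter of edgeR on low counts, called 2 of the 6 genes, tal1 (adjusted p = 0.0198) and spi1b (adjusted p = 0.0182), and 2.77% of the 24986 genes that had a p-value. The same 2 genes were called by edgeR when genes of low count were kept (adjusted p = 0.0117 and 0.0252), where 1.95% of all genes were. On the filtered genes limma's voom with sample weights called 0 of the 6 and 0.457% of all genes. When atoh1b-MO II was left out, edgeR called spi1b (log2 fold change 1.35, adjusted p = 0.0419) and 1.45% of all genes. When atoh1b-MO V, the highest sample for spi1b, was left out, edgeR did not call it (log2 fold change 0.74, adjusted p = 0.377). Over all the alternatives of this comparison, the adjusted p-value ran from 0.0117 to 0.831 for tal1 and from 0.0182 to 0.794 for spi1b.

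With control III included, the spread of the controls grew and the muscle genes changed sign. In edgeR 0 of the 6 genes were called, as were 0.0% of 17874 genes, and 1 had an unadjusted p-value below 0.05, against 5.82% of all genes. That gene was spi1b, with a log2 fold change of 1.39 (SE 0.39, adjusted p = 0.751), and it was also the only member without overlap of the 3 controls and the 3 atoh1b-MO samples, which held for 13.2% of all genes, and for 7.36% in that direction. DESeq2 called spi1b alone of the 6 (adjusted p = 0.0997) and gave myod1 and myog no adjusted p-value, so they could not be called. It called 0.444% of the 25253 genes that had a p-value. On the filtered genes, voom called none of the 6 and 0.117% of all genes. The log2 fold change by edgeR was -0.14 for tal1, 0.60 for gata1a, -1.10 for myod1, -0.50 for myf5 and -2.47 for myog, each with an interval that held 0. The biological coefficient of variation in edgeR was 112.8% for myog and 81.3% for gata1a in this fit.

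**Figure D4:**
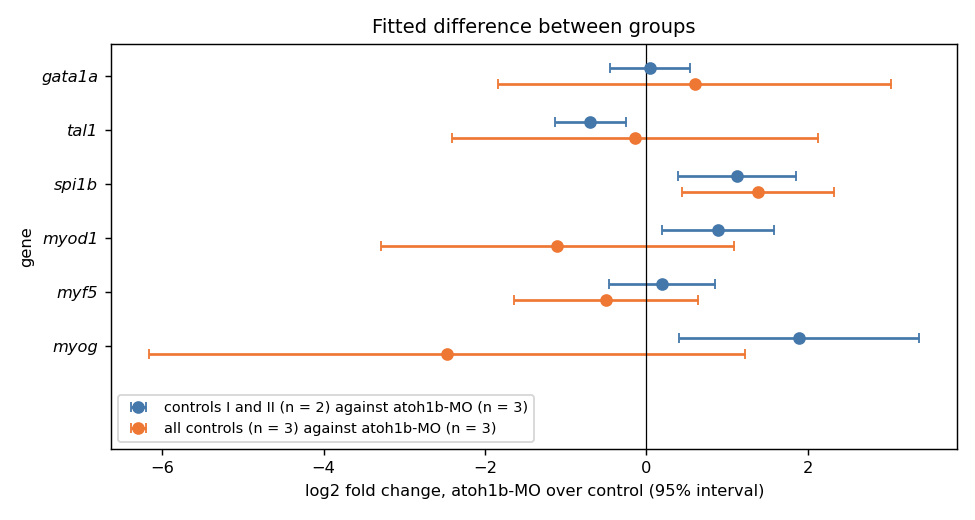
The log2 fold change of atoh1b-MO (n = 3) over control for each gene, with its 95% interval, fitted by edgeR without control III (blue, 2 controls) and with it (orange, 3 controls). The points of myod1, myf5 and myog lie on opposite sides of 0 in the fits, and those of spi1b lie at 1.12 and 1.39.

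The lists, with the members in them, were read for the same comparison. Without control III, 0 of 17 primitive blood genes and 0 of 13 muscle genes were called by edgeR in either direction, with median log2 fold changes of 0.32 and 0.44 against 0.01 for all genes. At an unadjusted p-value below 0.05, 2 blood genes were lower and 0 higher, and 4 muscle genes were higher and 0 lower. Of all genes, 6.62% were higher and 4.54% lower at that p-value. These blood genes include the member tal1, and the muscle genes include the members myod1 and myog, which are thus counted again. The place of myog in that count is a description only, because of how it passed the filter. By the same measure 4 of 14 presomitic and paraxial, 2 of 7 endothelial and 2 of 7 nephric genes were lower. Higher were 1 nephric gene and 1 of 7 myeloid genes, the latter being the member spi1b, and 0 of 4 neural genes were either. The only list gene called was the OEPD gene spry4, an antagonist of Fgf signalling, with a log2 fold change of -0.56 (SE 0.10, adjusted p = 0.0808 by edgeR), and 8 of the 15 OEPD genes were lower at an unadjusted p-value below 0.05 and 0 higher. Within the atoh1b-MO group the lists were not even, and the median log2 ratio of the blood list was -0.40, 0.17 and 0.81 in atoh1b-MO II, IV and V and that of the muscle list 0.90, 0.04 and 0.37.

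The patterns of the members were compared over the 6 samples by Pearson's r of log2 CPM, as a description. All genes of a library share its depth and composition, and each value is also given without control III. The r of gata1a and tal1 was 0.98, and 0.56 without control III. The r of myod1 and myog was 0.99, and 0.93 without control III, whereas that of myod1 and myf5 fell from 0.86 to 0.23. The r of tal1 and pax8 was 0.99, and 0.96 without control III. The r of tal1 and myod1 was -0.98, and -0.92 without control III, and atoh1b-MO II, the lowest of the remaining samples for tal1, was the highest for myod1. The r of spi1b and tal1 was 0.64, and -0.39 without control III. Among 17873 genes ordered by r over the 6 samples, tal1 stood at rank 315 for gata1a and myod1 at rank 454 for myf5. By the same order pax8 stood at rank 52 for tal1 and myog at rank 7 for myod1. An r of 0.98 was thus not rare among all genes.

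Among genes with a mean count above 100, the gene closest in pattern to tal1 was listed as SOX7, a factor of vascular precursors, at 158.5, 119.3 and 5.23 CPM in the controls and 61.9, 93.9 and 105.6 CPM in the atoh1b-MO samples. Its r with tal1 was 0.997 over the 5 samples without control III. Each closest gene was chosen by its r over all 6 samples, so a high r over 5 of them is no separate check. The closest to gata1a was listed as MICALL2, to spi1b as hdr and to myod1 as DDR1, the last a collagen receptor. The closest to myf5 was listed as SMYD1, a methyltransferase needed for the assembly of muscle fibres, with an r of 0.99, and 0.98 without control III. The closest to myog was si:ch211-43f4.1.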

How the data were processed

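RNAseq was performed on sorted cells of 3 control and 3 atoh1b-MO samples, grouped by their titles. The deposited values are raw counts of reads per gene, which the authors made with featureCounts and did not normalize. The labels' processing notes name bcl2fastq 2.19.1, featureCounts 1.5.3 and the build GRCz10, the study's methods name another featureCounts version, GSNAP and GRCz11, and the files do not settle which holds. Library preparation and instrument also differ between the labels and the methods. Unique alignment lowers the counts of near-identical paralogs.

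The 92 spike-in sequences had 0 counts and were left out. Levels were scaled by TMM. Genes were tested with edgeR 4.0.16 (quasi-likelihood test, filterByExpr, Benjamini-Hochberg adjustment over all genes tested), and called at an adjusted p-value below 0.1, the threshold of the study. Its clutch term could not be built, as the labels name no clutch. All 6 members passed the filter, but without control III myog did so only through the atoh1b-MO samples. It had 8 and 12 counts in controls I and II. DESeq2 1.42.0, limma 3.58.1 (voom), other scalings, filters and thresholds, and leaving out each sample were alternatives. The script was tested on simulated data. Gene symbols came from a table of Ensembl IDs, which named 26433 of the 32266 genes. Symbols are printed as it lists them or in lower case. Through it, 18 of 21 primitive blood, 11 of 13 myeloid, 7 of 11 endothelial and 14 of 27 muscle genes were matched. So were 15 of 19 presomitic and paraxial, 15 of 20 OEPD, 7 of 12 nephric and 4 of 8 neural genes. Genes without a match, such as pax2a, dlx3b and hnf1ba, were not read. Chi-square statistics over genes ran from 11.7 to 122.6 per degree of freedom between samples, so no pair was a repeat deposit. The p-values test differences between groups against the spread estimated from these samples, and no clutch effect is separated in them. A floor of 3 counts was 0.0807 to 0.124 CPM. Wilson intervals and floors cover counting error only, since PCR reads are not independent molecules. The intervals of the log2 fold changes come from the edgeR fit and include the spread estimated from these samples. The members and lists were chosen with earlier results of these data known. All 6 members are named, as are the gene of each list most abundant per kilobase in controls I and II, any list gene called, and the gene closest in pattern to each member. The genes hbae3, kdrl, smyhc1, actc1b, sox3, tfap2c, tfap2a, etv5b and foxi1 were picked after their values were seen. A promoter motif search was not run, and no sequence is used here.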

Additional observations from a re-analysis of the deposited data

How the results depend on the processing

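Without control III, 110 genes were called by edgeR. The count was 71 at an adjusted p-value below 0.05, 488 when genes of low count were kept, 693 with DESeq2 and 13 to 260 when 1 sample was left out. The members called went from 0 to 2 when genes of low count were kept and 2 with DESeq2, tal1 and spi1b both times, and to 0 to 1 when 1 sample was left out. With control III included, 0 genes were called by edgeR, 112 by DESeq2, 21 by voom and 0 to 110 when 1 sample was left out, and the members called went from 0 to 1 with DESeq2.

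The log2 fold changes that changed sign were never called. Without control III, that of gata1a ran from -0.20 to 0.24 and that of myf5 from -0.078 to 0.39 when 1 sample was left out. With control III included, voom gave 0.55 for myod1, 0.0026 for myf5 and 1.26 for myog. When 1 sample was left out, the values ran from -0.69 to 0.44 for tal1, -1.58 to 0.89 for myod1, -0.78 to 0.20 for myf5 and -3.03 to 1.89 for myog, and the muscle genes were above 0 only without control III. The cause was not tested. A filter of 10 counts in every sample removed myog, which had 8 in control I, from both fits. Of the log2 fold changes of single genes, 118 kept their sign and their side of the threshold, 12 changed sign and 6, all of tal1 or spi1b, passed the threshold. All 24 levels per kilobase under other scalings moved by less than the SD of their group. No paired analysis was possible because the groups share only the replicate number II.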
